A study of Triticum turgidum subsp. durum with 4 samples.

Results

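The sequences described here are those that the deposited table of durum wheat small RNA files under miR6300, miR5368, miR5139 and miR6478, families whose miRBase sequences resemble transfer RNA (tRNA) or ribosomal RNA (rRNA). A row belonged if its name carried one of these numbers in full after miR or MIR, whatever the species prefix or variant. This gave 129 different sequences of the 2111 in the table, of which 26 were miR6300, 66 miR5368, 6 miR5139 and 31 miR6478. Small RNA of 18 to 25 nt was sequenced from shoots of 12-day-old seedlings in 4 libraries, each a pool of RNA from 8 seedlings. TCG came from seeds of control parents of the stress-tolerant variety DBA Aurora and TWH from seeds of Aurora parents that had water deficit and heat. SCG and SWH were the control and stressed counterparts of the stress-sensitive breeding line L6. The seedlings themselves were not stressed in any group. With 1 library per seed group there was no replicate, so each test of a pair below compares 2 libraries and not 2 kinds of seed.

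A plant tRNA is transcribed with short internal promoter elements, the A box and the B box, folds into a cloverleaf, and receives the triplet CCA at its 3′ end after transcription. Cleavage in its loops releases 5′ and 3′ fragments in the size range of small RNA libraries, and rRNA of the cytoplasm and of plastids breaks into fragments of the same sizes. A canonical plant miRNA is cut by a Dicer-like enzyme from a hairpin with fixed ends and is mostly 21 nt long. From background knowledge, miR6300 is the 5′ part of tRNA-Asp, miR6478 the 5′ part of tRNA-Tyr and miR5139 the 3′ end of initiator tRNA-Met, whose complement is also the primer binding site of many retrotransposons, while miR5368 matches large-subunit rRNA of the chloroplast.

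The names tell how each durum sequence differs from miRBase. L and R give bases gained or lost at the 5′ and 3′ end, 1ss6CT is a C-to-T substitution at position 6, and p5 and p3 are reads from the rest of the reference hairpin. Chosen sequences of each family are shown with bases 2 to 8, the seed, in capitals. For miR6300 they are the sequence identical to miRBase, its most abundant extension, a form that starts 1 base later, and 2 of the internal sequences.
gma-miR6300: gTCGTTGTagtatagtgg
gma-miR6300_R+5: gTCGTTGTagtatagtggtaagt
gma-miR6300_L-1R+8: tCGTTGTAgtatagtggtaagtatt
gma-MIR6300-p5_7: tGTAGTATagtggtaagtattccc
gma-MIR6300-p3_7: tAGTGGTAagtattcccgcc
The first base of gma-miR6300 set the seed of 9 of the 26 sequences, CGTTGTA was the seed of the 2 that start 1 base later, and the 15 internal sequences spread over further seeds. For miR6478 the 6 most abundant forms and 1 that was recorded in Aurora libraries alone are shown.
ptc-miR6478_R-1: cCGACCTTagctcagttggt
ptc-miR6478_R-1_1ss6CT: cCGACTTTagctcagttggt
ptc-miR6478_R+2_1ss21GA: cCGACCTTagctcagttggtaga
ptc-miR6478_1ss21GA: cCGACCTTagctcagttggta
ptc-miR6478_2ss6CT21GA: cCGACTTTagctcagttggta
ptc-miR6478_R-2: cCGACCTTagctcagttgg
ptc-miR6478_R-1_1ss5CT: cCGATCTTagctcagttggt
Of the 31 miR6478 sequences, 19 shared the seed of ptc-miR6478_R-1 and 7 that of ptc-miR6478_R-1_1ss6CT, and no sequence outside the 4 families had either seed. For miR5368 and miR5139 the leading members of each stretch are shown.
gma-MIR5368-p5_1ss1TC: cCCTGGGAttggctttgg
gma-MIR5368-p3_1ss1TC: cCCTGGGAttggctttgggc
gma-MIR5368-p3_1ss13CA: tACCACTCtggaagagct
gma-miR5368_L+2R+2: aGGGACAGtctcaggtagacagt
cas-miR5139_L-1: aACCTGGCtctgatacca
cas-miR5139_L-1_1ss5CT: aACTTGGCtctgatacca
cas-miR5139_L+3R+2: cATAAACCtggctctgataccact
The 66 miR5368 sequences held 29 different seeds and the 6 of miR5139 held 6, so neither family had a common seed.

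The genome segments that the table lists as precursors show what surrounds the reads, and 1 per family follows with the mature sequence in capitals.
gma-miR6300: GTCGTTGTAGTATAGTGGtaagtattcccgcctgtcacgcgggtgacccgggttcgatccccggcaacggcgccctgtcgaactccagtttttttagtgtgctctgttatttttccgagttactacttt
ptc-miR6478_R-1: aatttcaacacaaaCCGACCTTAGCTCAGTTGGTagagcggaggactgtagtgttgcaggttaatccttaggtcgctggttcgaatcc
gma-MIR5368-p5_1ss3TC: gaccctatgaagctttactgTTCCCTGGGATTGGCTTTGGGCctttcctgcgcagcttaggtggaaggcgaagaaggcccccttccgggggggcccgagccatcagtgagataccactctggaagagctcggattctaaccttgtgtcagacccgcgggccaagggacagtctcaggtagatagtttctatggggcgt
cas-miR5139_L-1: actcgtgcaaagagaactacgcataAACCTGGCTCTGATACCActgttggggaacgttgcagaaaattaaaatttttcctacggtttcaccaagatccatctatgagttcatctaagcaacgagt
In the durum genome assembly Svevo.v1 these lie at chr2B:692295728-692295856 (plus strand), chr3B:686979357-686979444 (plus), chr1B:29871555-29871752 (plus) and chr7A:685797414-685797538 (minus). The third lies in an annotated protein-coding gene, TRITD_1Bv1G012150, and the other 3 in none. Of the 129 members, 127 were placed, at 110 loci on all 14 chromosomes, and 25 of the placements overlapped an annotated protein-coding gene, 20 of miR5368 and 5 of miR6478. The exons and introns of those genes were not analysed here. Each placed member was listed at 1 location only. The 26 miR6300 sequences were listed at 26 loci, although 25 of them matched 1 precursor exactly. A listed location is therefore not shown to be where the reads came from. Nearly all members, 127, were in group G3, whose reads map to the genome while the surrounding sequence forms no hairpin, and 2 were in G4, whose reads were not mapped. Over all 2111 sequences 41.6% were in G3, and over 19 canonical families such as miR156, miR166 and miR396 the share was 32.8%.

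Letters of tRNA genes were looked for in these sequences. The A box, read along the sequence with up to 1 mismatch, was found in 19 of the 26 miR6300 and 27 of the 31 miR6478 sequences and in none of the other 2 families, against 3.83% of the sequences outside the 4 families. The B box core GTTCGANNC, searched on both strands, was found in 17 of the 127 listed precursors, 8 of miR6300 and 9 of miR6478, against 0.515% of 1941 other precursors. It began at base 52 of the miR6300 precursor and base 79 of the miR6478 precursor printed above, downstream of the capitals and apart from the A box. A 3′ end of CCA was present in 3 members, 2 of them miR5139, against 2.98% of the other sequences. These matches describe the letters and not a site in use.

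Placed on these precursors, with position 1 at the first base of the earliest read or of the miRBase sequence, the families differed in how their ends were spread. The miR6478 reads had 1 fixed end. Of its 31 sequences 28 began at position 1, and these held 99.7% of the family's reads, whereas the 3′ ends fell at 9 positions and were most often at position 20, with 44.2% of reads, position 21, with 25.2%, or position 23, with 15.2%. In miR6300 the same held for the 11 sequences named as mature forms: 9 began at position 1 and had 78.9% of the reads, 2 began at position 2, and their 3′ ends ran from position 18 to 26. The other 15 miR6300 sequences began at positions 3 to 15 of the same segment. They hold only 2 sets of counts, so their reads could not be assigned to single ends.

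The miR5368 sequences covered 3 separate windows of the last 182 nt of the precursor and had no fixed end. The first window, positions 1 to 29, held 27 sequences with 11 different first bases, the second, positions 87 to 115, held 25 sequences with 12 first bases, and the third, from position 144 on, held 14 sequences with 6 first bases. No listed sequence fell between the windows. In miR5139, cas-miR5139_L-1 and cas-miR5139_L-1_1ss5CT began at position 5, ended in CCA at position 22 and had 81.4% of the reads. They shared both ends, so neither end of the family was more fixed than the other. The 3 longer sequences began earlier and ran 1 or 2 bases past the CCA into the bases that follow it in the listed precursor. The last miR5139 sequence, from the other arm of the reference hairpin, had no match there, with 9 mismatches at best.

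**Figure D1:**
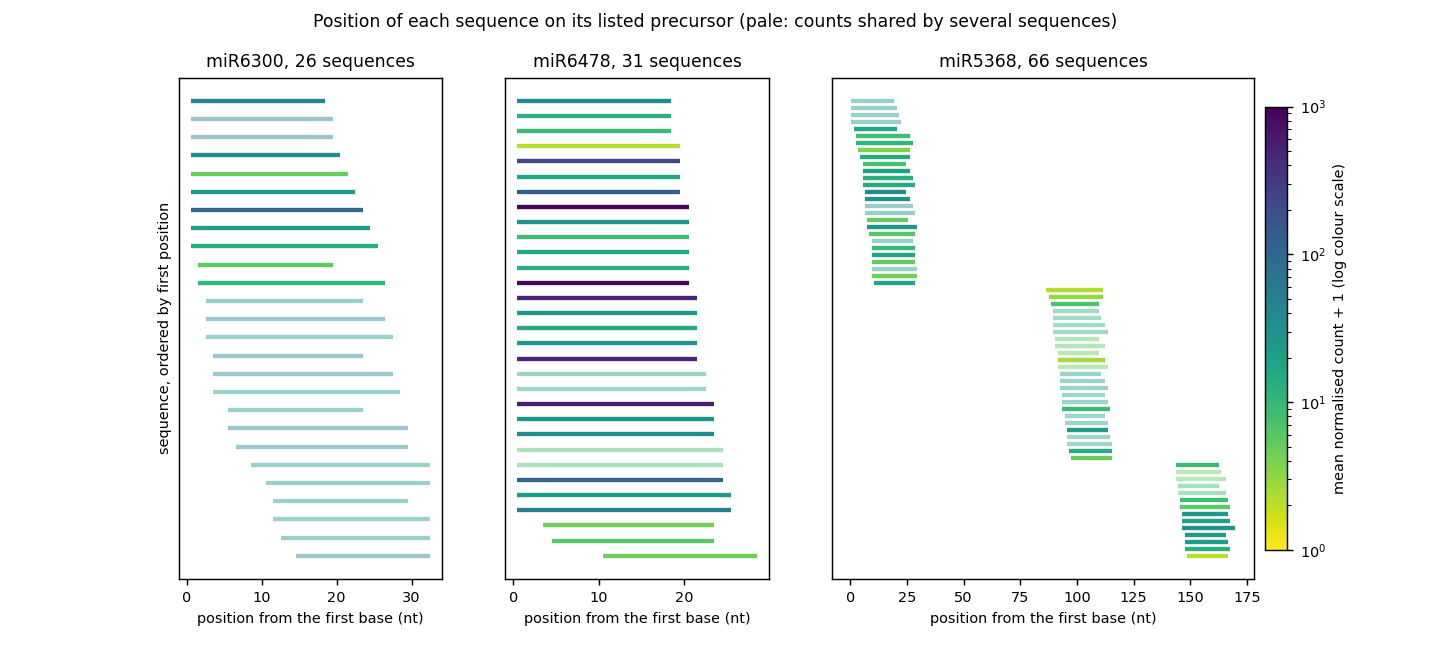
Each line is 1 sequence of miR6300, miR6478 or miR5368, drawn from its first to its last position in nt on the precursor, in the colour of its mean normalised count over the 4 libraries (pale lines share their counts with other sequences). Of the 31 miR6478 lines 28 start at position 1, the miR6300 lines slide from position 1 to 32, and the 66 miR5368 lines fall into 3 windows.

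The lengths differed in the same manner. Counting profiles that belong to 1 sequence, miR6478 had 44.6% of its reads at 20 nt, 25.4% at 21 nt and 15.1% at 23 nt, and miR6300 had 41.1% at 23 nt. This left out gma-miR6300_R+1, shared by 2 sequences of 19 nt, with 76, 30, 78 and 47 reads in TCG, TWH, SCG and SWH. Also left out were both internal miR6300 profiles, gma-MIR6300-p5 with 103, 44, 15 and 15 reads and gma-MIR6300-p3 with 44, 19, 7 and 15. The miR6300 shares are therefore those of a part of its reads, with none at 19 nt. Shared profiles left out of the other families were 13 of miR5368 and 2 of miR6478. The miR5368 reads fell from 23.1% at 18 nt to 2.20% at 25 nt with no peak inside that range, and 84.8% of the miR5139 reads were 18 nt, the shortest length kept. In the canonical families 76.3% of reads were 21 nt. Among mature-named miR6478 profiles no 5′ end differed from miRBase, 74.7% of reads had a shifted 3′ end and 70.7% a substitution. In the canonical families 9.47% of reads had a shifted 5′ end and 79.3% were unmodified.

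**Figure D2:**
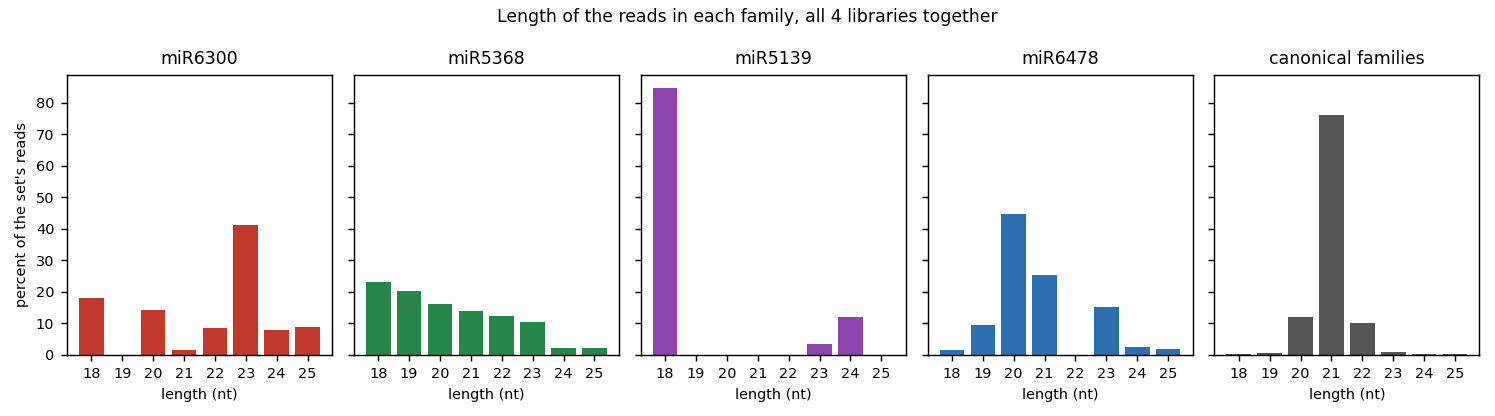
Bars show the percent of reads of each length in nt in the 4 families and in 19 canonical miRNA families, all 4 libraries together and only for counts that belong to 1 sequence. The canonical reads peak at 21 nt with 76.3%, miR6478 at 20 nt with 44.6%, miR6300 at 23 nt with 41.1%, and miR5139 at 18 nt with 84.8%. Counts shared by several sequences are not drawn, among them the 19-nt profile gma-miR6300_R+1, shared by 2 sequences, and both internal miR6300 profiles.

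Several sequences carried the same counts. The 129 sequences held 97 sets of counts, called count profiles below, and 18 of these were shared by 50 sequences with names that differ in a final number only. The largest was shared by 9 sequences, gma-MIR6300-p3_1 to p3_9, each listed with 44, 19, 7 and 15 reads in TCG, TWH, SCG and SWH although they start at 7 different positions. Each profile was therefore counted once. A recorded count was never under 5 reads in these families, so that a 0 was read as fewer than 5 reads.

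Together the 4 families made up 0.524% of the reads assigned to miRNA names in TCG, 0.448% in TWH, 0.506% in SCG and 0.548% in SWH, of 855716 to 1293324 reads per library. Of the 97 profiles 62 were recorded in all 4 libraries. The miR6478 family, of tRNA-Tyr, was the most abundant, with summed normalised counts of 4079 in TCG, 3709 in TWH, 4263 in SCG and 4483 in SWH. The miR5368 family followed at 658, 545, 687 and 679.7, miR6300 at 527, 260.3, 371 and 346, and miR5139 at 126, 133, 127 and 110.3. TWH was the lowest library for 3 of the 4 families, and miR5139 was lowest in SWH.

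Within miR6478 the order of the forms was much the same in each library. The leading sequence, ptc-miR6478_R-1, had normalised counts of 841, 801, 1038 and 1058 in TCG, TWH, SCG and SWH, and both L6 libraries were above both Aurora libraries. Its partner with T at position 6, ptc-miR6478_R-1_1ss6CT, had 879.8, 718, 847 and 879.9, with TWH lowest and the other 3 close together. The 23-nt ptc-miR6478_R+2_1ss21GA had 548, 521, 576 and 580.2, the 21-nt ptc-miR6478_1ss21GA 472, 436, 521 and 549, and ptc-miR6478_2ss6CT21GA 441, 455, 485 and 550.2. No miR6478 sequence was identical to the miRBase sequence of poplar. Of the 15 sequences that began at position 1 and reached position 21, none had the poplar base there, 14 carried G21A and 1 carried G21T, counting from 1 at the 5′ end of the miRBase sequence.

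Single miR6300 profiles were less abundant. The 23-nt gma-miR6300_R+5 had normalised counts of 119, 94.6, 118 and 77.9 in TCG, TWH, SCG and SWH, and each stressed-parent library was below the control library of its genotype. The profile gma-miR6300_R+1, shared by 2 sequences of 19 nt, had 78.7, 28.4, 64.9 and 56.3. The sequence identical to miRBase, gma-miR6300, had 50.7, 16.1, 48.3 and 53.9, so that TWH alone was low. The 2 internal profiles behaved otherwise: gma-MIR6300-p5, shared by 6 sequences, had 107, 41.6, 12.5 and 18.0, and gma-MIR6300-p3 had 45.5, 18.0, 5.83 and 18.0. TCG was the highest library in both, and SCG, not TWH, the lowest.

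The miR5368 family was spread thinly over 50 profiles, none of which reached a normalised count of 100 in any library. Its leading profile, gma-MIR5368-p5_1ss1TC of the first window, had 55.9, 27.4, 35.8 and 33.6, highest in TCG. In the third window gma-miR5368_L+2R+2 had 32.1, 10.4, 44.96 and 34.8, lowest in TWH. The profile gma-MIR5368-p5_2ss1TC21TC, shared by 2 sequences, had 19.7, 30.3, 35.0 and 31.2, with TCG lowest, and gma-MIR5368-p3_1ss1TC had 36.2, 26.5, 35.8 and 16.8. These 3 first-window reads begin at the same base and yet did not share an order of the libraries. In miR5139, cas-miR5139_L-1, the form that ends in CCA, had 100.4, 93.7, 79.9 and 53.9 and was far above the others of its family. Next came cas-miR5139_L-1_1ss5CT with 20.7, 12.3, 22.5 and 18.0 and cas-miR5139_L+3R+2 with 5.18, 15.1, 9.99 and 13.2. The fourth, cas-MIR5139-p3_2ss9AG18GC, was recorded in L6 alone, with 6 reads in SCG and 11 in SWH.

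**Figure D3:**
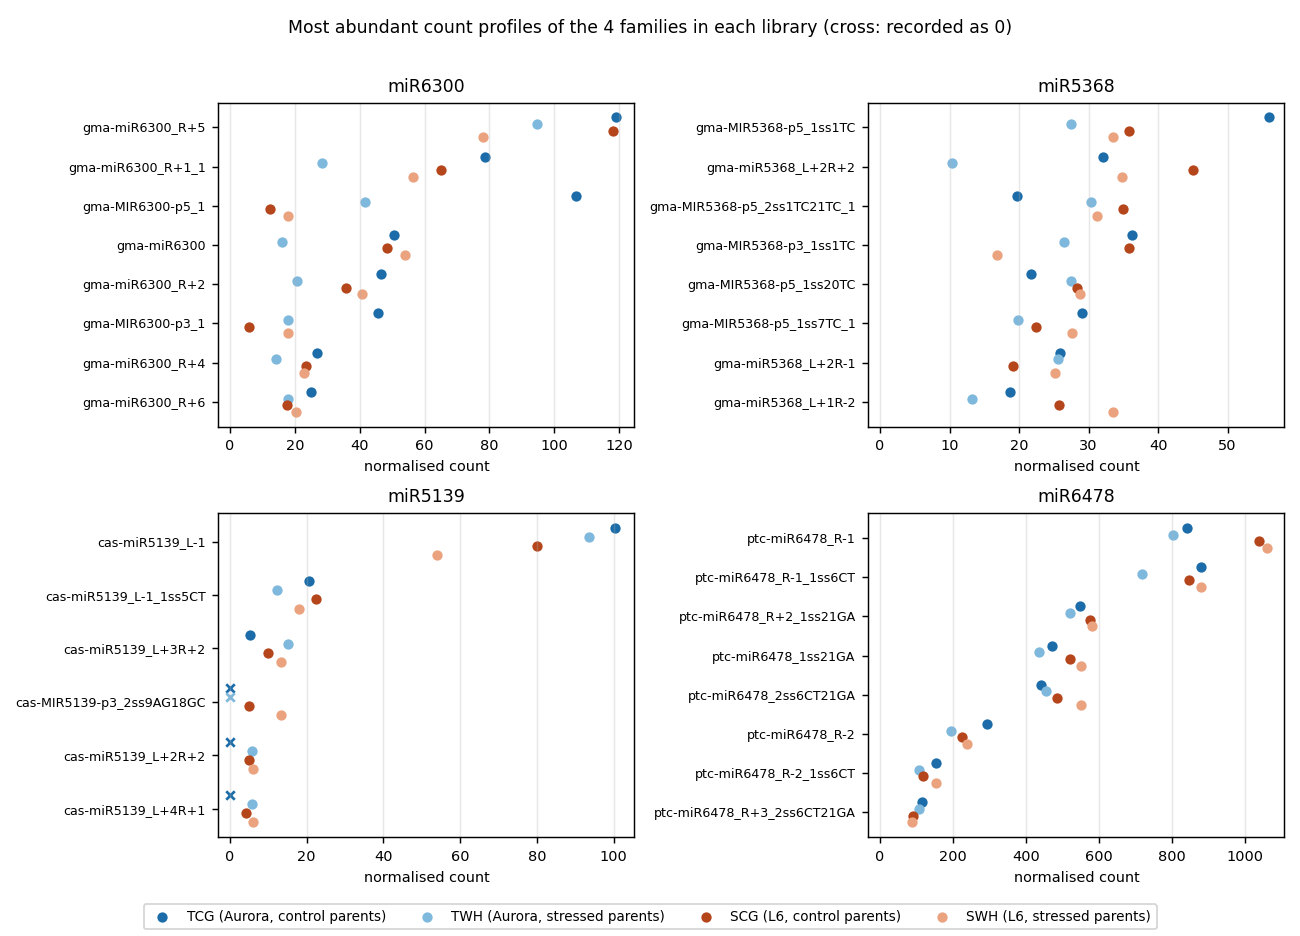
Points give the normalised count of the most abundant count profiles of each family (at most 8) in TCG, TWH, SCG and SWH, with a cross where the count was recorded as 0. TWH is the lowest library for gma-miR6300 at 16.1, TCG stands out for gma-MIR6300-p5 at 107, and the miR6478 forms keep nearly the same order in each library.

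The miR6478 reads came in forms that differ at position 6, where the reference has C and C6T gives T. At 20 nt, T made up 51.1% of the reads of the pair in TCG (Wilson 95% interval 48.7 to 53.5), 47.3% in TWH (44.9 to 49.7), 44.9% in SCG (42.9 to 47.0) and 45.4% in SWH (43.0 to 47.8). At 21 nt the shares were 48.3%, 51.1%, 48.2% and 50.0%, and all 4 intervals overlapped. The share in TCG thus lay above that in SCG and SWH beyond counting error at 20 nt and not at 21 nt. These intervals and those below cover counting error only, since PCR copies were not marked. The lengths of the forms differed beyond 21 nt, taking the 19 sequences with C and no other change in the seed and the 7 with T. The form with C had 23.6% of its reads at 23 nt and 0.290% at 24 nt, while the form with T had 6.27% at 24 nt and no sequence of 22 or 23 nt among those analysed here. At 24 nt the T form had 111, 113, 109 and 74 reads in TCG, TWH, SCG and SWH, and the C form 0, 8, 15 and 6. The order of the forms at 24 nt was thus the same in each library. The 19-nt C form, ptc-miR6478_R-2, had 282, 204, 269 and 198 reads and the T form 148, 112, 143 and 127.

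**Figure D4:**
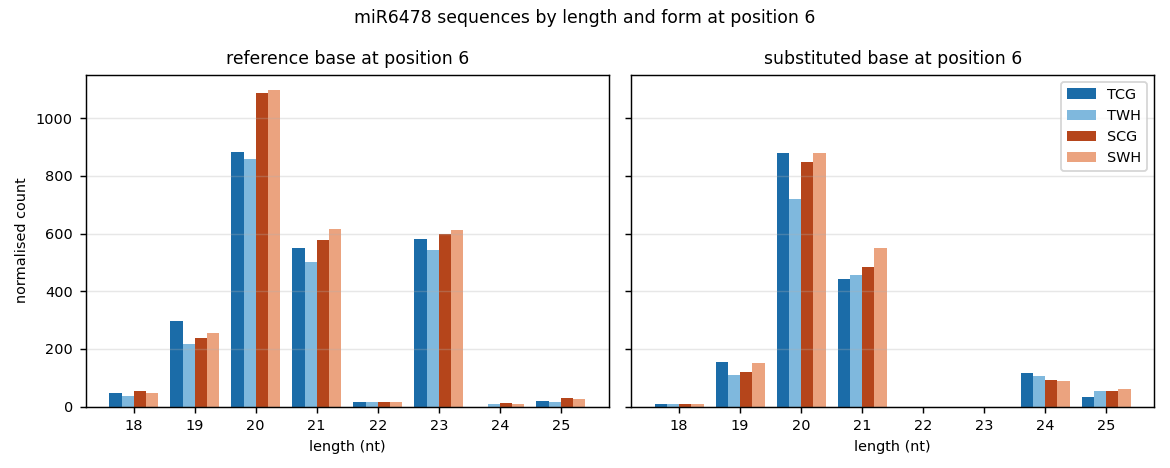
Bars give the summed normalised count per library of miR6478 sequences of each length in nt, with the reference base (left) or the substituted base (right) at position 6. Both forms peak at 20 and 21 nt, the reference form again at 23 nt with 23.6% of its reads, and the substituted form at 24 nt with 6.27%.

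The first question of the design was whether the parents' stress left a difference in Aurora seedlings, and there the miR6300 family stood lowest against its control. In TWH vs TCG its summed normalised count went from 527 to 260.3, a log2 ratio of -1.02 (95% counting interval -1.23 to -0.81). A profile was called a differentially expressed miRNA (DEM) if the chi-squared 2 × 2 test and the two-sided Fisher's exact test both gave p under 0.05 and the ratio of normalised counts plus 1 passed 1 on the log2 scale. Of 85 member profiles recorded in either library 10 were called higher, where 10.9% of all profiles were, and 16 lower, where 10.7% of all were. Of those 26 calls 13 rested on a library recorded as 0. Of the 10 miR6300 profiles 6 were lower, none was higher, and all 9 recorded in both libraries had ratios below 0. The median log2 ratio of the miR6300 profiles was -1.21, against 0.01 over all profiles.

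The called miR6300 members included gma-miR6300 with 49 reads in TCG and 17 in TWH, a log2 ratio of -1.60 (Fisher's exact p = 1.31e-05). The profile gma-miR6300_R+1 went from 76 to 30 reads at -1.44 (Fisher's exact p = 5.16e-07) and gma-miR6300_R+2 from 45 to 22 reads at -1.12 (Fisher's exact p = 0.00149). The internal profile gma-MIR6300-p5 went from 103 to 44 reads at -1.34 and gma-MIR6300-p3 from 44 to 19 reads at -1.29. Forms with a 5′ end at position 1 and internal forms were thus both lower in TWH. The longest-tailed abundant form, gma-miR6300_R+5, with 115 and 100 reads, was not called.

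The other families did not move as one in that comparison. The miR6478 sum had a log2 ratio of -0.14 (counting interval -0.20 to -0.07), the miR5368 sum -0.27 (-0.43 to -0.11) and the miR5139 sum 0.07 (-0.28 to 0.42). Within miR5368 the third window was lower in TWH, at -0.62 (-0.95 to -0.29), while the second was at 0.01 (-0.34 to 0.36). Lower miR5368 calls were gma-MIR5368-p5_1ss1TC with 54 reads in TCG and 29 in TWH, just past the threshold, gma-miR5368_L+2 with 31 and 6 reads, and gma-miR5368_L+2R+2 with 31 and 11. The one of higher count that rose was gma-MIR5368-p5_2ss2AT19CA, from 8 to 25 reads at 1.41. In miR6478 ptc-miR6478_R-2_1ss19GT was called higher, with 6 and 24 reads, and ptc-miR6478_2ss20TC21GA lower, with 31 and 16.

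In L6 the same comparison, SWH vs SCG, showed smaller differences in the sums of miR6300, miR5368 and miR6478. The miR5139 sum could not be ranked, as its counting intervals in Aurora and L6 both included 0 and overlapped. The miR6300 sum had a log2 ratio of -0.10 (counting interval -0.31 to 0.11), miR5368 -0.02 (-0.17 to 0.14), miR5139 -0.20 (-0.57 to 0.18) and miR6478 0.07 (0.01 to 0.13). Of 91 member profiles 7 were called higher, with 7.32% of all profiles, and 9 lower, with 11.3% of all profiles, shares close to those backgrounds, and 12 of the 16 calls rested on a library recorded as 0. The miR6300 interval did not overlap that of Aurora, a comparison of counting error in 4 libraries and no test of an interaction. The single called miR6300 profile was gma-MIR6300-p3, higher in SWH with 15 reads against 7. The calls of higher count were gma-MIR5368-p3_1ss14CA, from 13 to 23 reads, ptc-MIR6478-p3_2ss2CG17GA, recorded in SWH alone with 17 reads and so at least 4.90-fold higher than the 5 reads that stand for a 0, and gma-MIR5368-p3_1ss1TC, lower with 43 and 14 reads.

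**Figure D5:**
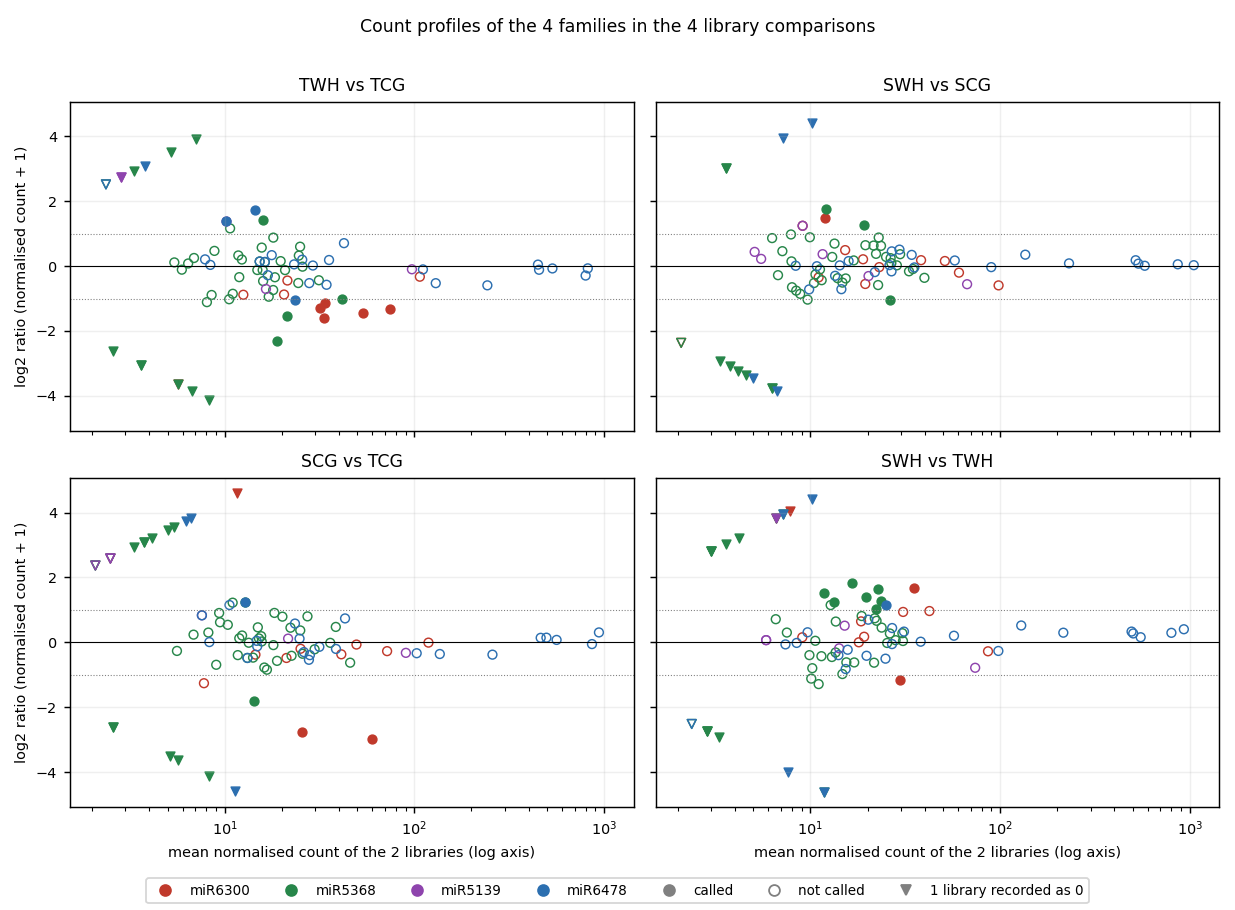
Each symbol is a count profile of the 4 families in 1 library comparison, with the mean normalised count of both libraries on a log axis and the log2 ratio of normalised counts plus 1 (filled: called, triangle: 1 library recorded as 0, dotted lines: 1 and -1). In TWH vs TCG 6 miR6300 profiles are called lower, in SCG vs TCG 2 miR6300 profiles lie below -2, and the most abundant profiles stay between the dotted lines.

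Between the genotypes the internal miR6300 reads differed otherwise than the forms that begin at position 1. The forms that begin at position 2 were recorded in L6 alone and are described further below. Sequences of the internal stretch that are filed under miR8175 are not in these sums and are also given below. In SCG vs TCG the 2 internal profiles together had 22 reads against 147, a log2 ratio of -3.05 (counting interval -3.70 to -2.41), while forms that begin at position 1 had 390 against 362 reads, a ratio of normalised counts of -0.21 (-0.41 to -0.00). Singly, gma-MIR6300-p5 was called lower at -3.00 (Fisher's exact p = 3.4e-21) and gma-MIR6300-p3 at -2.77 (Fisher's exact p = 3.69e-09). In SWH vs TWH the summed internal profiles were at -0.73 (-1.36 to -0.10), which came from gma-MIR6300-p5, called lower at -1.17, as gma-MIR6300-p3 had a normalised count of 18.0 in both, whereas the forms from position 1 were higher, at 0.49 (0.22 to 0.76). The family sum hence went from -0.50 (-0.69 to -0.32) in SCG vs TCG to 0.41 (0.17 to 0.65) in SWH vs TWH. With every sequence counted in place of every profile it was -1.46 and -0.0096, so its higher value in SWH vs TWH depends on counting shared profiles once. These 2 comparisons share no library, while each shares 1 with each parent comparison above.

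Of 93 member profiles in SCG vs TCG 11 were called higher, with 14.8% of all profiles, and 9 lower, with 14.4% of all profiles, and 15 of these 20 calls rested on a library recorded as 0. Of 90 in SWH vs TWH 21 were called higher, with 12.6% of all profiles, and 8 lower, with 16.7% of all profiles, and 19 of these 29 rested on a 0. The higher calls in SWH vs TWH were 23.3% of the member profiles. The miR5368 family, with 45 of the 90 profiles, had 31.1% of its own called higher, which made 14 of the 21 calls. Among them were gma-miR5368_L+2R+2 with 29 reads in SWH and 11 in TWH, gma-MIR5368-p5_1ss18TC with 22 and 7, gma-MIR5368-p3_1ss15CA with 24 and 11, gma-MIR5368-p3_1ss16CA with 25 and 15, and gma-miR5368_L+1R-2 with 28 and 14. The second window of miR5368 was higher in L6 in both comparisons, at 0.44 (0.12 to 0.76) and 0.45 (0.12 to 0.78), the third was at 0.02 (-0.26 to 0.31) in SCG vs TCG and at 0.64 (0.30 to 0.99) in SWH vs TWH, and the first was at -0.09 (-0.30 to 0.12) and 0.09 (-0.14 to 0.33). Also called higher in SWH vs TWH were gma-miR6300, with 45 and 17 reads at 1.69, and ptc-miR6478_2ss20TC21GA, with 29 and 16, while ptc-MIR6478-p3_2ss2CG17GA was at least 4.31-fold higher with 17 and 0. Called lower in SCG vs TCG was gma-miR5368_L+1, with 7 and 22 reads.

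Some forms were recorded in 1 genotype only. Both L6 libraries and neither Aurora library held 7 of the 97 member profiles, 7.22%, beside 3.75% of all profiles, and both Aurora libraries and neither L6 library held 2, 2.06%, beside 4.28%. In L6 only were both miR6300 forms that start at position 2, gma-miR6300_L-1R+8 with 28 reads in SCG and 13 in SWH, and gma-miR6300_L-1R+1 with 6 and 11. The first was at least 4.50-fold higher in SCG than in TCG and at least 3.29-fold higher in SWH than in TWH. In Aurora only was ptc-miR6478_R-1_1ss5CT, the 20-nt tRNA-Tyr form with C5T, with 22 reads in TCG and 25 in TWH, at least 5.47-fold lower in SCG and at least 3.95-fold lower in SWH. In the same Aurora and L6 libraries the unsubstituted ptc-miR6478_R-1 had 812, 846, 1247 and 883 reads. The profile gma-MIR5368-p5_2ss2AT19CA, with 25 reads in TWH and 0 in SWH, was lower there by at least 3.95-fold and yet was recorded in SCG with 15 reads.

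A fit of all 4 libraries with parent treatment and genotype as terms, which left 1 residual degree of freedom, was run in edgeR (quasi-likelihood test). It took the 1258 sequences whose normalised counts averaged 10 or more, 88 of them members. Shared profiles thus entered the fit and its adjustment once per sequence. The results count each profile once, 1130 in all and 61 of members. No member had an adjusted p under 0.05 for parent treatment, where 0% of all profiles did, and no member had an unadjusted p under 0.05, nor under DESeq2, while limma gave 1. Of all 1130 profiles edgeR gave 10 higher and 9 lower with an unadjusted p under 0.05. For genotype no member had an adjusted p under 0.05, where 0.0885% of all profiles, 1 of 1130, did. An unadjusted p under 0.05 was found in edgeR for 3 of the 61 member profiles. Over all 1130 profiles it was found for 82 higher and 84 lower in L6, a larger share than among members. DESeq2 gave 2 members and limma 3 below that limit, and neither called any (DESeq2 gave no adjusted p for 46 of the 61). The 3 members in edgeR were ptc-miR6478_R-1_1ss5CT (edgeR adjusted p = 0.199), gma-MIR6300-p5 with a log2 change of -2.21 ± 0.54 (SE, edgeR adjusted p = 0.218) and gma-MIR5368-p3_1ss15CA with 1.40 ± 0.40 (SE, edgeR adjusted p = 0.269). For gma-miR6300 the parent treatment term was -0.59 ± 0.51 (SE, edgeR adjusted p = 0.997).

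Other reads that match the miR6300 precursor, from background knowledge tRNA-Asp, are filed under another name, miR8175. It belongs to a list of 14 further family numbers reported to match structural RNA. All 18 miR8175 sequences matched the miR6300 precursor printed above with at most 2 mismatches. Of these 12 lay within its bases 53 to 75 and ended in CCA, whose last base the precursor does not hold, and 5 began at bases 12 to 15, within the stretch of the internal miR6300 reads. The most abundant was ath-miR8175_L-2, shown with its seed in capitals.
ath-miR8175_L-2: tCCCCGGCaacggcgcca
It had 251, 245, 523 and 349 reads in TCG, TWH, SCG and SWH, so that both L6 libraries were above both Aurora libraries. The summed miR8175 counts differed by -0.14 (counting interval -0.35 to 0.06) in TWH vs TCG, where miR6300 was at -1.02, and by 0.63 (0.44 to 0.81) in SCG vs TCG, where miR6300 was at -0.50. In SWH vs SCG it was 0.04 (-0.12 to 0.21) and in SWH vs TWH 0.82 (0.62 to 1.01), and there its intervals overlapped those of miR6300. The miR8175 sum includes the 5 sequences that begin at bases 12 to 15. Over the profiles of that list, which came from miR5054, miR5072, miR5077, miR5083, miR6173 and miR8175 alone, 2 of 43 profiles were called higher and 7 lower in TWH vs TCG, 8 and 3 of 44 in SWH vs SCG, 4 and 9 of 43 in SCG vs TCG, and 10 and 6 of 45 in SWH vs TWH. Of all profiles 10.9% were called higher and 10.7% lower in TWH vs TCG, and 7.32% and 11.3% in SWH vs SCG. In SCG vs TCG these shares were 14.8% and 14.4%, and in SWH vs TWH 12.6% and 16.7%. The median log2 ratios of that list were -0.11, 0.12, 0.01 and 0.29, beside -0.11, 0.02, 0.05 and 0.24 for the 4 families and 0.01, -0.09, 0.01 and -0.07 for all profiles.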

How the data were processed

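Per the labels, total RNA of shoots from 8 seedlings per seed group was pooled and 1 small RNA library per group was sequenced. The authors trimmed adapters, held to lengths of 18 to 25 nt, discarded matches to noncoding RNA (RFam), repeats (Repbase) and mRNA, and assigned the rest to miRBase names and the durum genome (Svevo.v1) with ACGT101-miR (version: not given in the sources used here). A read that differs from an RFam entry could pass that step, so the counts here are of what the filter left. The deposited raw reads are estimated counts (the members' were all whole), and the deposited normalised signal is each raw number multiplied by a library factor of 0.833 to 1.20. The authors' own fold changes and p-values were not used.

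From these, sequences were placed on the listed precursors without gaps, and each pair of libraries was compared as described, every sequence against the sum of all others over the whole table, with normalised counts rounded for Fisher's test. Effects common to both genotypes or seed sources were fitted with edgeR 4.0.16 (TMM, reads rounded, Benjamini-Hochberg over all sequences tested), with limma 3.58.1 on log2(normalised count + 1) and DESeq2 1.42.0 as alternatives, in R 4.3.3. Simulated data had counting error and the recording minimum alone, and changes of 2 on the log2 scale in sequences averaging 20 or more normalised. The tests found nearly all of these, which does not show how they find smaller changes or changes at lower counts. The pair tests also called many unchanged sequences of low count, so a pair call at low count, above all against a 0, is weak evidence of a difference. Totals of 855716 to 1293324 reads per library limit precision, and 5 reads is the smallest count recorded for a member. Named singly are the unmodified sequence and the 4 most abundant profiles of each family, members called while reaching 20 normalised in 1 library of the pair, the most shared profile, and members past p 0.05 in edgeR, which were chosen after their values were seen, as were the remaining named members. The members and lists were chosen with earlier results of these data known. Alternatives tried were p thresholds of 0.01 and 0.1, adjusted p, 2 other scalings, a minimum count, counting each sequence, Fisher's test alone, other tools, and leaving out the top profile of a family.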

Additional observations from a re-analysis of the deposited data

Results flagged for a closer look

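Some members moved in opposite directions under the same contrast, and with 1 library per seed group these differences were not tested. From control to stressed parents, gma-MIR6300-p3 had a log2 ratio of -1.29 in Aurora and 1.47 in L6, gma-MIR5368-p5_2ss2AT19CA 1.41 and -3.75, gma-miR5368_L+3 -3.63 and 3.03, and ptc-miR6478_R-1_1ss19GT 1.39 and -3.46. The values beyond 3 rest on a library recorded as 0. With 5 reads standing for that 0, the lower bound in L6 was 2.08-fold for gma-MIR5368-p5_2ss2AT19CA and 1.67-fold for ptc-miR6478_R-1_1ss19GT. For gma-miR5368_L+3 it was 2.41-fold in Aurora and 1.73-fold in L6. The summed miR6478 counts also had opposite signs, -0.137 in Aurora and 0.0727 in L6. From Aurora to L6, the summed miR6300 counts had a log2 ratio of -0.50 among control parents and 0.41 among stressed parents (-0.0096 with every sequence counted). The ratios of gma-miR5368_L+3 were -3.63 and 3.03, again against a 0, with lower bounds of 2.74-fold and 1.52-fold. Each was listed because both calls, or both counting intervals of a sum, excluded no difference.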

How the results depend on the processing

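No paired analysis was possible because each seed group has 1 library and so no replicate numbers to pair. The fit with genotype as a term already compares parent treatments within genotypes. Of 104 alternative values 81 stayed within 1.5 times the count, or within the counting interval of the sum, and 23 did not. Counting every sequence raised the calls from 26 to 43 in TWH vs TCG, 16 to 29 in SWH vs SCG and 20 to 37 in SCG vs TCG, since shared profiles then count repeatedly. A p of 0.01 left 13 calls in SCG vs TCG and 19 in SWH vs TWH, and a minimum normalised count of 10 left 9 in SWH vs SCG and 13 in SCG vs TCG. Without the filter on low counts edgeR called 4 of 97 members for genotype, beside 64 higher and 60 lower of all 1894 profiles, adding gma-miR6300_L-1R+8 as higher in L6 and gma-MIR6300-p5, gma-MIR6300-p3 and ptc-miR6478_R-1_1ss5CT as lower. With every sequence counted the miR6300 sums had log2 ratios of -1.23 in TWH vs TCG, 0.22 in SWH vs SCG, -1.46 in SCG vs TCG and -0.0096 in SWH vs TWH, the last turned from 0.41. Without gma-miR6300_R+5 they were -1.30, -0.69 and 0.70 in TWH vs TCG, SCG vs TCG and SWH vs TWH. Without cas-miR5139_L-1 the miR5139 sums were 0.58 in TWH vs TCG, 0.27 in SWH vs SCG, 0.85 in SCG vs TCG, and 0.54 in SWH vs TWH. The miR6478 ratio in TWH vs TCG was -0.067 with TMM scaling, and in SWH vs SCG 0.14 when scaled to total reads. In SCG vs TCG it turned from 0.06 to -0.0021 with total reads and to -0.0064 without ptc-miR6478_R-1, so it has no settled sign. For these changes the cause was not tested beyond the construction of each alternative.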
